A study of Rattus norvegicus with 83 samples.

Results

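The genes described here are 51 listed symbols of the extracellular matrix and its elastic fibres, taken by symbol from the rows of the deposited count table. The table held a row for 43 of the 51, out of 17483 rows in all. The 8 symbols without a matching row (Col6a1, Col6a3, Col12a1, Fbln2, Col4a2, Lamb1, Nid1 and Hspg2) were not analysed here. The list was sorted by role into fibrillar collagens, collagen VI with the fibril-associated collagens, elastic fibre proteins, proteoglycans with small matrix proteins, basement membrane proteins, adhesive and matricellular proteins, and a last set of enzymes, a chaperone and inhibitors.

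RNA came from Sprague-Dawley rat offspring of dams of the stock Crl:CD(SD), sampled at gestational day (GD) 21 or pup day (PD) 16 and labelled testis, and was sequenced from the 3′ end of transcripts in 83 barcoded libraries. All dams were gavaged daily from GD7, and birth was expected on GD23. The treatment protocol gives PD22 as the end of dosing and the design text gives PD16. The vehicle group had corn oil alone, the MMI8 and MMI16 groups had methimazole at 8 and 16 mg/kg body weight per day, and the Ami25 and Ami50 groups had amitrole at 25 and 50 mg/kg body weight per day. Methimazole and amitrole both block thyroid peroxidase, the enzyme that makes thyroid hormone. Each group held 6 libraries at GD21, and at PD16 there were 10 vehicle, 10 MMI8, 10 MMI16, 11 Ami25 and 12 Ami50 libraries. No label ties a library to an animal or litter, so p-values measure the spread between these libraries.

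Total counts ran from 495369 to 1627114 at GD21 and from 202270 to 1186973 at PD16, where 1 count is worth about 2.03 CPM, counts scaled to a total of 1e6, at the median total. In several respects the libraries went against their labels. The adrenal cortex list summed to between 10085 and 65336 CPM in every library, while 12 of the 14 testis markers with a row had a median of 0 over all libraries. Embryonic globins made up a median of 14.2%, 16.3% and 16.9% of globin counts in the PD16 vehicle, MMI8 and MMI16 libraries, but 0.18% and 0.13% in PD16 Ami25 and Ami50 and between 0.11% and 0.17% in the GD21 groups. A difference between amitrole and the other PD16 groups and a difference between stages thus cannot be told apart. A low level (under 10 CPM) of the Y-linked gene Eif2s3y was found only in 8 of 12 Ami50 libraries labelled PD16. The liver gene Alb reached 200 CPM in 15 libraries, of which 3 were PD16 Ami50 and none PD16 vehicle. In whole-tissue RNA, fewer cells of a type and less RNA per cell cannot be told apart.

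Extracellular matrix is the protein scaffold that connective tissue cells secrete around themselves. Fibrillar collagens bear tension, and small leucine-rich proteoglycans bind the fibrils and set their spacing, while basement membranes of collagen IV, laminin and nidogen underlie epithelium and vessels. Elastic fibres consist of a core of cross-linked elastin laid on a scaffold of microfibrils, which fibrillins and microfibril-associated proteins build, and fibulins join the parts.

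The promoters of 4 genes are shown because their levels carry the contrasts described next. Mfap5, Dpt and Pcolce were higher in every amitrole library labelled PD16 than in any vehicle library of that label. Serpinh1 was lower than vehicle in both amitrole groups and in MMI16. Each line gives the 250 bases before the annotated start, 5′ to 3′ on the gene's own strand, from RefSeq on the rat assembly GRCr8. Capitals mark matches on either strand to the TATA box (TATAAA), the CCAAT box (CCAAT) or the GC box (GGGCGG). In the Mfap5 window the match ATTGG is the CCAAT box read on the other strand, and in the Pcolce window the match CCGCCC is the GC box read likewise. These positions are Mfap5 chr4:157399669-157399918 (+ strand), Dpt chr13:79656091-79656340 (+ strand), Pcolce chr12:24720722-24720971 (+ strand) and Serpinh1 chr1:163062977-163063226 (- strand).
Mfap5: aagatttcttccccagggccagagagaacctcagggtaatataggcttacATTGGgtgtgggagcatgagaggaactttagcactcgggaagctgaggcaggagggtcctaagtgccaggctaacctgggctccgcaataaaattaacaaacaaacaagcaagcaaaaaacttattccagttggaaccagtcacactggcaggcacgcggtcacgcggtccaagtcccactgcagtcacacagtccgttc
Dpt: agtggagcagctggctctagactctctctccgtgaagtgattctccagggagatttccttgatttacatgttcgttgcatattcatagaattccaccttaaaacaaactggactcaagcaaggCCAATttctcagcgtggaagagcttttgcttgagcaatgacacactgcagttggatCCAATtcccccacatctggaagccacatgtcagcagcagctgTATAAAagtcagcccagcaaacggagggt
Pcolce: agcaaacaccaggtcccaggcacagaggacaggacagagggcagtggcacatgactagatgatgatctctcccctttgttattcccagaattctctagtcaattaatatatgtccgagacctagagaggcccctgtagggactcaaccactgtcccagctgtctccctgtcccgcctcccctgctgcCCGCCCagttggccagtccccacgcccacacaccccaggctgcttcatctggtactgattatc
Serpinh1: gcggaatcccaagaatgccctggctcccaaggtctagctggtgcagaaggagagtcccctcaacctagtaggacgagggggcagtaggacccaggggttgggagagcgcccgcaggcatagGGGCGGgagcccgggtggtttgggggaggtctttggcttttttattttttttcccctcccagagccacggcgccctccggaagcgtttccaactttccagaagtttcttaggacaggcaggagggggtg

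The Dpt window held 1 TATAAA and 2 CCAAT, the Mfap5 window 1 CCAAT, and the Pcolce and Serpinh1 windows 1 GGGCGG each. Of the 51 symbols, 34 matched 1 window in the RefSeq table. GGGCGG occurred in 19 of these 34 windows and in 30.5% of all 33469 windows of the table. TATAAA occurred in 6 of 34 against 12.9% of all windows, CCAAT in 9 of 34 against 34.0%, CAGAC (the SMAD box) in 16 of 34 against 42.9%, and AGGTCA (a nuclear receptor half-site) in 4 of 34 against 14.1%. Both strands were searched, and none of these motifs holds another. The median GC content was 60.4% in the member windows and 51.2% in all windows. A match describes these letters only.

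At PD16 more of the matrix genes tested were called higher than lower in the amitrole libraries against vehicle. In the methimazole libraries 1 was called, Serpinh1, lower in MMI16. Called here means an adjusted p under 0.05 in edgeR's quasi-likelihood F test with Benjamini-Hochberg adjustment over all 4906 genes tested at PD16. All adjusted p-values below come from edgeR. Of the 32 members that passed the filter on low counts, 16 were called higher and 5 lower in Ami50 than in vehicle, where 27.1% of all tested genes were called higher and 26.5% lower (53.5% in either direction). In Ami25, 19 were called higher and 2 lower, against 27.9% and 27.5% of all tested genes (55.4% in either direction). The median log2 difference of the tested members from vehicle was 0.48 in Ami50 and 0.49 in Ami25, beside 0.02 and 0.01 over all tested genes. Eln, Fbln5, Mfap5 and Dpt passed the filter only through the amitrole libraries. That favours genes that are higher there, so they are set apart. Of the other 28 members, 12 were called higher and 5 lower in Ami50, with a median of 0.39, and 15 higher and 2 lower in Ami25, with a median of 0.45. Both amitrole groups were compared with the same 10 vehicle libraries. The plot of log2 differences by role shows every tested member.

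**Figure D1:**
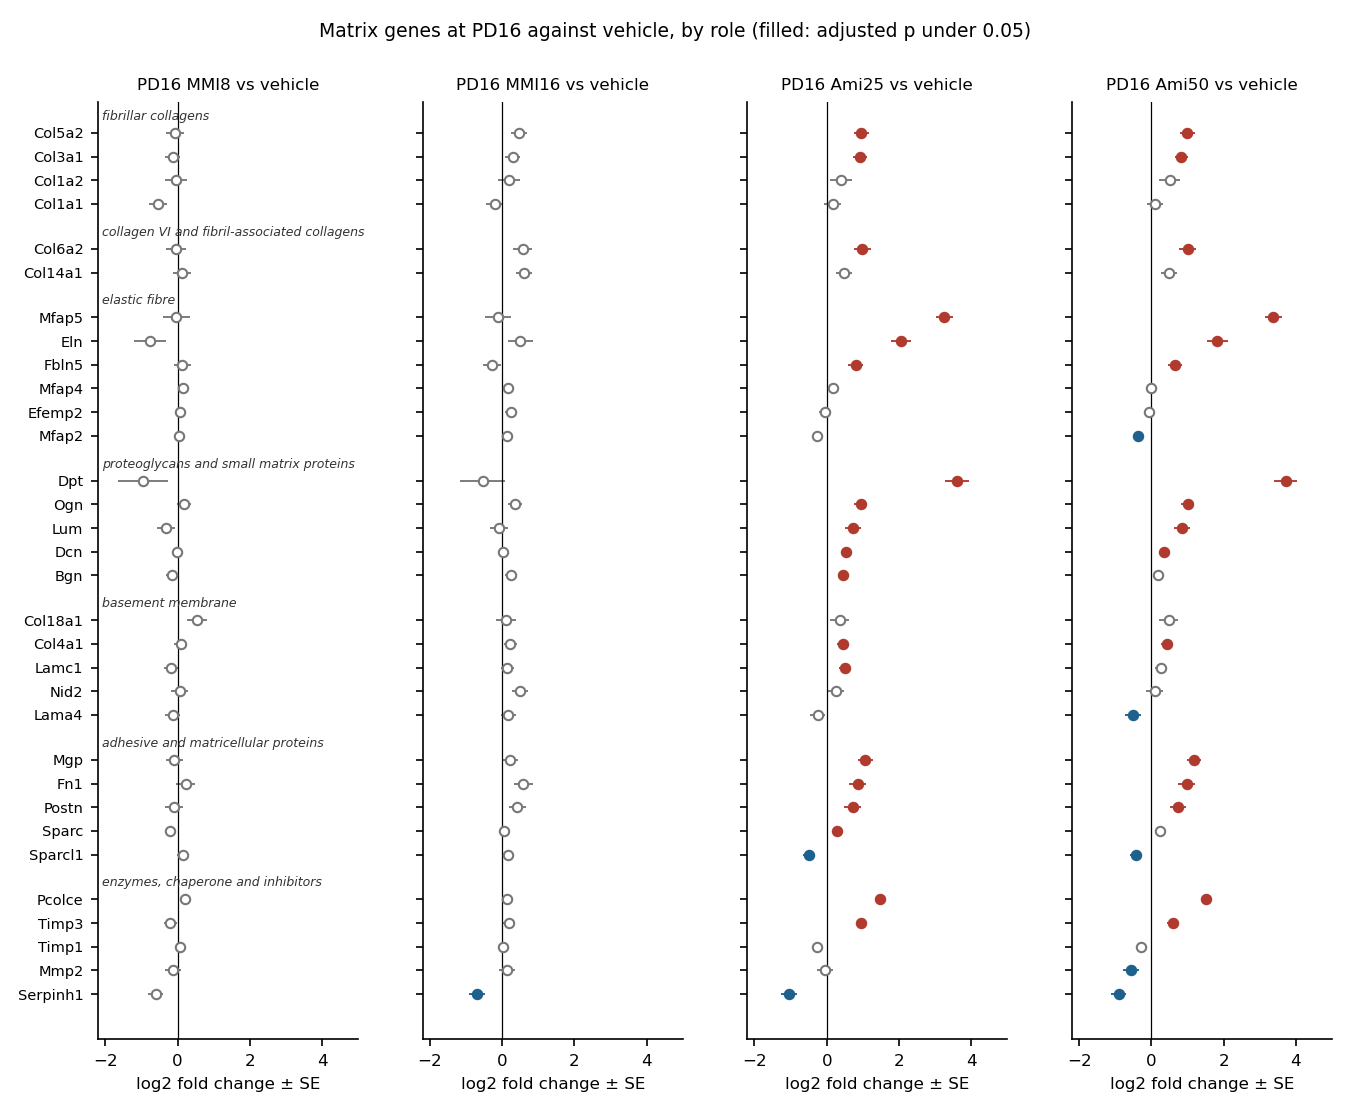
Log2 fold change from vehicle at PD16 with its SE (horizontal axis) for the 32 tested members, grouped by role (vertical axis), in 1 panel for each treated group; filled points have an adjusted p under 0.05, red higher and blue lower. Mfap5, Dpt, Eln and Pcolce lie farthest to the right in Ami50, at 3.38, 3.72, 1.83 and 1.51, while Serpinh1 lies at -0.90.

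Elastic fibre genes showed the widest spread. Of 6 tested, 3 were called higher and 1 lower in Ami50, and 3 higher and none lower in Ami25 (66.7% and 50%, beside 53.5% and 55.4% of all tested genes). The 3 higher ones, Mfap5, Eln and Fbln5, are among those that passed the filter only through the amitrole libraries. Levels below are in CPM, as the lowest, median and highest library of each group. Mfap5, a microfibril-associated glycoprotein, stood at PD16 at 5.9, 9.84 and 29.3 in vehicle, 3.52, 11.4 and 18.9 in MMI8, 3.85, 10 and 22.4 in MMI16, 71, 108 and 169.9 in Ami25, and 39.5, 115 and 231 in Ami50. The GD21 values for Mfap5 were 47.1, 69.2 and 106 in vehicle, 57, 85 and 118 in MMI8, 55, 90.7 and 215 in MMI16, 47.1, 64.8 and 119 in Ami25, and 50.0, 101 and 179 in Ami50. The PD16 vehicle and methimazole libraries were low, and every amitrole library lay above the highest vehicle library (12 of 12 in Ami50 and 11 of 11 in Ami25), overlapping the range of the GD21 groups. Relative to vehicle the log2 difference of Mfap5 was 3.38 ± 0.23 (SE, adjusted p = 2.38e-19 in edgeR) in Ami50, a 10.4-fold higher level, and 3.25 ± 0.24 (adjusted p = 3.04e-18) in Ami25.

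Elastin (Eln), the elastic core protein itself, measured at PD16 4.04, 10.2 and 27.5 in vehicle, 2.69, 6.58 and 13.2 in MMI8, 6.74, 12.9 and 64.3 in MMI16, 19.9, 43.1 and 103 in Ami25, and 17.7, 40.2 and 72.4 in Ami50. At GD21 Eln measured 14.5, 23.8 and 55.9 in vehicle, 14.9, 22.5 and 45.3 in MMI8, 17.6, 28.2 and 137 in MMI16, 5.72, 25.1 and 44.4 in Ami25, and 9.88, 29 and 74.4 in Ami50. Vehicle and amitrole ranges overlapped, with 10 of 12 Ami50 and 9 of 11 Ami25 libraries above the highest vehicle library. Elastin differed from vehicle by 1.83 ± 0.28 log2 units in Ami50 (adjusted p = 1.34e-07, edgeR), a 3.55-fold higher level, and by 2.05 ± 0.28 in Ami25 (adjusted p = 5.79e-09). Fbln5, a fibulin that tethers elastin to microfibrils and cells, had PD16 levels of 9.72, 16.6 and 23.6 in vehicle, 8.08, 17.4 and 24.9 in MMI8, 4.14, 14.5 and 29.7 in MMI16, 18.1, 26.5 and 33.9 in Ami25, and 13, 21.3 and 44.7 in Ami50. In the GD21 libraries Fbln5 lay at 12.9, 18.5 and 24.8 in vehicle, 9.86, 16.8 and 21.9 in MMI8, 12.4, 17.5 and 21.4 in MMI16, 11.4, 17.5 and 22.2 in Ami25, and 12.1, 18.5 and 24 in Ami50. Its rise was smaller, at 0.66 ± 0.20 in Ami50 (adjusted p = 0.00433) and 0.80 ± 0.20 in Ami25 (adjusted p = 0.00055), and 5 of 12 and 8 of 11 libraries exceeded the vehicle maximum. Without the 8 Ami50 libraries low in Eif2s3y, the Ami50 call for Fbln5 was lost (adjusted p = 0.122).

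Mfap4, a microfibril-associated protein of the same fibres, had the smallest difference of the tested elastic fibre genes in Ami50. Its PD16 levels were 274, 356 and 432 in vehicle, 262, 357 and 563 in MMI8, 287, 382 and 668 in MMI16, 288, 344 and 599 in Ami25, and 248, 289.7 and 544 in Ami50. At GD21 they were 138, 233 and 314 in vehicle, 158, 244 and 284 in MMI8, 148, 191 and 468 in MMI16, 170.3, 218 and 345 in Ami25, and 169.9, 282 and 421 in Ami50. All PD16 groups overlapped, and Mfap4 differed from vehicle by -0.01 ± 0.14 in Ami50 (adjusted p = 0.958, 95% interval -0.29 to 0.27). Mfap2, another microfibril-associated glycoprotein, went the other way from Mfap5: 10 of 12 Ami50 libraries lay below the lowest vehicle library and the difference was -0.37 ± 0.13 (adjusted p = 0.0162), a call lost without the libraries low in Eif2s3y (0.102). In Ami25 Mfap2 differed by -0.27 ± 0.14 and was not called (adjusted p = 0.0841), though it was without vehicle library 58 (-0.32, adjusted p = 0.0463) or Ami25 library 79 (-0.34, 0.0283). Efemp2, or fibulin-4, which elastin assembly needs, was not called in either (-0.07 and -0.06). Mfap2 and Efemp2, like the other members named outside the naming rule, were chosen after their values were seen.

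**Figure D2:**
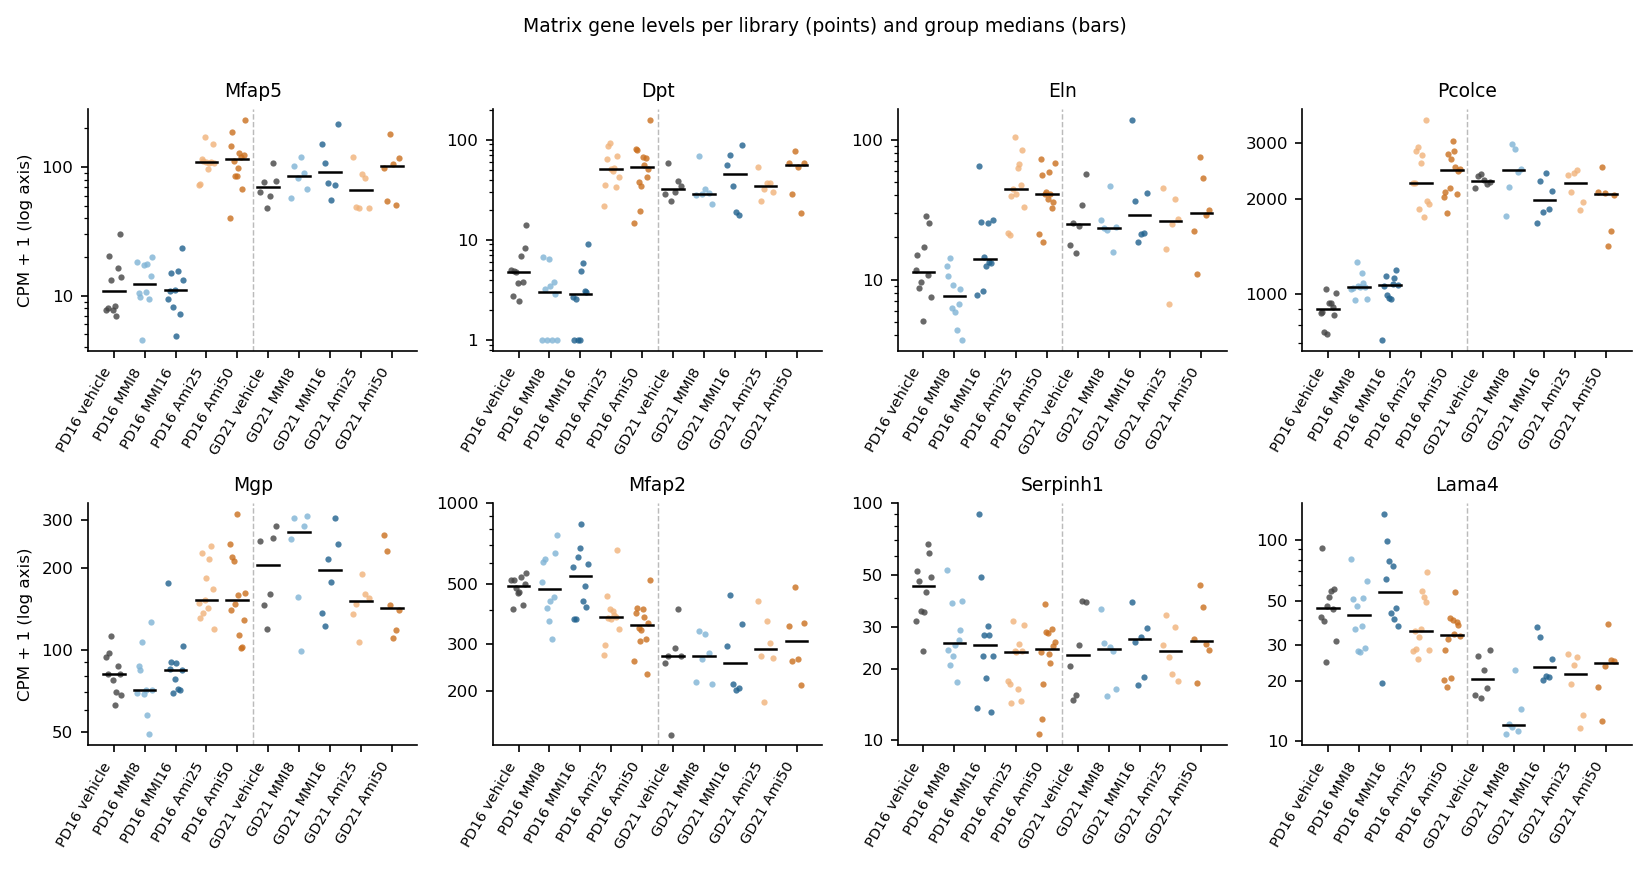
CPM plus 1 on a logarithmic axis in each of the 83 libraries, by group, for 8 members (Mfap5, Dpt, Eln, Pcolce, Mgp, Mfap2, Serpinh1 and Lama4), 1 point per library with the group median as a bar. In Mfap5, Dpt and Pcolce the PD16 vehicle and methimazole points sit below all PD16 amitrole points, which overlap the GD21 groups.

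As a description of microfibril makeup, Mfap5 was expressed as a percentage of the summed counts of Mfap2, Mfap4 and Mfap5 in a library. The lowest, median and highest share was 0.64%, 1.21% and 3.32% in PD16 vehicle, 0.52%, 1.15% and 2.70% in MMI8, 0.26%, 1.07% and 2.72% in MMI16, 10.6%, 12.1% and 15.2% in Ami25, and 7.20%, 15.4% and 17.9% in Ami50. At GD21 the medians were 12.8% in vehicle, 14.7% in MMI8, 16.3% in MMI16, 11.5% in Ami25 and 14.1% in Ami50. The PD16 libraries thus fell into separate ranges, with the highest vehicle or methimazole share below the lowest amitrole share. The 3 genes summed to a median of 495 counts per PD16 vehicle library and 362 per PD16 Ami50 library, so the low shares rest on a few counts of Mfap5.

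Proteoglycans and small matrix proteins moved mostly upward: 4 of 5 tested were called higher in Ami50 and 5 of 5 in Ami25. That is 80% and 100% called, beside 53.5% and 55.4% of all tested genes. Dpt, counted in both, passed the filter only through the amitrole libraries, which favours a higher level there. Dermatopontin (Dpt), which binds decorin and promotes collagen fibril assembly, had PD16 levels of 1.47, 3.83 and 13 in vehicle, 0, 2.04 and 5.75 in MMI8, 0, 1.86 and 8.12 in MMI16, 20.6, 50.2 and 92.5 in Ami25, and 13.9, 52.5 and 157 in Ami50. Its GD21 levels were 23.5, 31.3 and 58.2 in vehicle, 21.6, 27.9 and 68.4 in MMI8, 16.6, 44.5 and 88.6 in MMI16, 23.5, 33.7 and 52.5 in Ami25, and 17.8, 55.4 and 75.7 in Ami50. The PD16 vehicle and methimazole libraries were near the worth of a few counts, and 12 of 12 Ami50 and 11 of 11 Ami25 libraries lay above the highest vehicle library. The log2 difference of Dpt was 3.72 ± 0.33 in Ami50 (adjusted p = 3.85e-17, edgeR), or 13.2-fold, and 3.59 ± 0.33 in Ami25 (adjusted p = 5.71e-16), or 12.1-fold.

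Osteoglycin (Ogn), a small leucine-rich proteoglycan, measured at PD16 44.5, 69.9 and 91 in vehicle, 49.9, 76.4 and 113 in MMI8, 46.9, 79.9 and 136 in MMI16, 95.9, 124 and 212 in Ami25, and 78.1, 114 and 194 in Ami50. Over the GD21 groups Ogn measured 48, 119 and 207 in vehicle, 106, 129.9 and 163 in MMI8, 84.4, 117 and 186 in MMI16, 61.5, 109 and 143 in Ami25, and 68.8, 115 and 185 in Ami50. Of the amitrole libraries, 8 of 12 in Ami50 and 11 of 11 in Ami25 exceeded every vehicle library, and the differences were 1.00 ± 0.18 (adjusted p = 2.64e-06) and 0.94 ± 0.18 (adjusted p = 1.39e-05). Lumican (Lum), which regulates collagen fibril diameter, had PD16 values of 33.2, 63.3 and 87.6 in vehicle, 24.7, 49.2 and 72.8 in MMI8, 19.8, 62.9 and 83 in MMI16, 47.1, 103 and 155 in Ami25, and 27.7, 97.1 and 206 in Ami50. For GD21 the Lum values were 26.2, 66.5 and 78.9 in vehicle, 42.2, 61.6 and 84.3 in MMI8, 42, 86.2 and 169.6 in MMI16, 45.8, 74.6 and 98.9 in Ami25, and 38.9, 88.2 and 197 in Ami50. Its vehicle and amitrole ranges overlapped, with differences of 0.86 ± 0.22 in Ami50 (adjusted p = 0.000722, 8 of 12 libraries above the vehicle maximum) and 0.74 ± 0.22 in Ami25 (adjusted p = 0.00402, 7 of 11).

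Biglycan (Bgn), the proteoglycan with the smallest Ami50 difference, lay at PD16 at 48.9, 75.8 and 90.3 in vehicle, 40.8, 63 and 105 in MMI8, 57.8, 87.3 and 158 in MMI16, 54.2, 91 and 205 in Ami25, and 59.7, 79.2 and 127 in Ami50. The GD21 levels of Bgn were 38, 63.9 and 74.6 in vehicle, 49.3, 63.2 and 81.2 in MMI8, 45.7, 63.9 and 85.7 in MMI16, 45.8, 61.8 and 78.4 in Ami25, and 55.5, 67.2 and 82 in Ami50. Ranges overlapped throughout, and Bgn was not called in Ami50 (0.19 ± 0.15, adjusted p = 0.275) but was in Ami25 (0.45 ± 0.15, adjusted p = 0.00807). Ami50 differed from Ami25 by -0.25, which was not called (95% interval -0.53 to 0.03, adjusted p = 0.899). Decorin (Dcn), biglycan's close relative, was higher in both, by 0.35 ± 0.13 (adjusted p = 0.0213) and 0.54 ± 0.14 (adjusted p = 0.000554). The Ami50 call for Dcn ended without Ami50 library 86 (0.27, adjusted p = 0.0673), without the libraries high in Alb (0.134), without those low in Eif2s3y (0.0745) and with no filter on low counts (0.0586).

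Among fibrillar collagens, Col3a1 and Col5a2 were higher and the genes of collagen I were not called: 2 of 4 tested were higher and none lower in both amitrole groups. That is 50% called in each, beside 53.5% of all tested genes in Ami50 and 55.4% in Ami25. Col3a1, the chain of collagen III, which is abundant in pliable connective tissue, measured at PD16 228, 279.9 and 459 in vehicle, 193, 259.9 and 451 in MMI8, 157, 331 and 1023 in MMI16, 294, 507 and 1072 in Ami25, and 252, 446 and 1074 in Ami50. At GD21 Col3a1 lay at 144, 315 and 607 in vehicle, 211, 265 and 358 in MMI8, 179, 338 and 918 in MMI16, 155, 258 and 470.4 in Ami25, and 244, 384 and 626 in Ami50. The ranges overlapped. Of the Col3a1 values, 6 of 12 Ami50 and 8 of 11 Ami25 libraries exceeded the vehicle maximum, and the differences were 0.83 ± 0.19 (adjusted p = 0.000172) and 0.93 ± 0.19 (adjusted p = 4.42e-05). Col5a2, a chain of collagen V, which nucleates fibrils, had PD16 levels of 18.9, 38.1 and 64.6 in vehicle, 21.8, 37.2 and 59.9 in MMI8, 30.3, 54.5 and 168 in MMI16, 46.4, 70.3 and 136 in Ami25, and 29.9, 76.4 and 167 in Ami50. Its GD21 counterparts were 30.1, 47.3 and 102 in vehicle, 22.7, 38.2 and 45.6 in MMI8, 31, 48.2 and 109 in MMI16, 11.4, 31.1 and 66.6 in Ami25, and 31.1, 46.9 and 75.9 in Ami50. Here too 7 of 12 and 7 of 11 amitrole libraries lay above vehicle, with differences of 0.99 ± 0.21 in Ami50 (adjusted p = 5.54e-05) and 0.96 ± 0.21 in Ami25 (adjusted p = 0.000112).

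Col1a1, a chain of collagen I, the main load-bearing collagen, stood at PD16 at 372, 488 and 752 in vehicle, 209.5, 346 and 753 in MMI8, 172, 384 and 1582 in MMI16, 314, 529.7 and 969.9 in Ami25, and 288, 458 and 1258 in Ami50. Its levels at GD21 were 299.6, 474 and 1008 in vehicle, 366, 426 and 624.5 in MMI8, 304, 489 and 1364 in MMI16, 235, 465 and 628 in Ami25, and 356, 644 and 988 in Ami50. All groups overlapped, and Col1a1 differed from vehicle by 0.11 ± 0.22 in Ami50 (95% interval -0.33 to 0.55, adjusted p = 0.71) and 0.16 ± 0.23 in Ami25 (adjusted p = 0.572). Col1a2, the partner chain, was not called either (0.51 ± 0.30, adjusted p = 0.148 in Ami50). It had the largest biological coefficient of variation of the tested members at PD16, 47.2%, and was called higher in Ami50 once the libraries low in Eif2s3y were left out (1.05, adjusted p = 0.00965).

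Of collagen VI and the fibril-associated collagens, 2 members were tested and 1 was called higher in each amitrole group (50%, beside 53.5% of all tested genes in Ami50 and 55.4% in Ami25). Col6a2, a chain of the beaded microfilament collagen VI, had PD16 levels of 17.1, 35.1 and 50.6 in vehicle, 19, 30.0 and 68.5 in MMI8, 28.9, 39.5 and 267 in MMI16, 41.3, 64.4 and 121 in Ami25, and 32, 61.1 and 144 in Ami50. Its levels in GD21 libraries were 37.1, 52.7 and 92.2 in vehicle, 39.4, 48.8 and 56.6 in MMI8, 32.5, 62.7 and 149 in MMI16, 28.6, 53.7 and 84.8 in Ami25, and 30.0, 57.4 and 67.4 in Ami50. Nearly all Ami50 libraries (11 of 12) and 9 of 11 Ami25 libraries lay above the highest vehicle library, and the differences were 1.00 ± 0.24 (adjusted p = 0.000307) and 0.99 ± 0.24 (adjusted p = 0.000447). The Ami50 call was lost without the libraries low in Eif2s3y (adjusted p = 0.145). Col14a1, a collagen on the surface of fibrils, lay at PD16 at 8.67, 16.7 and 25.6 in vehicle, 6.65, 22 and 33.9 in MMI8, 14.2, 31.3 and 39.6 in MMI16, 12.6, 20.5 and 44 in Ami25, and 9.51, 21 and 44.7 in Ami50. The Col14a1 levels at GD21 were 7.24, 18 and 37.3 in vehicle, 13.8, 20.5 and 27.1 in MMI8, 10.8, 17.2 and 49.3 in MMI16, 2.86, 16.3 and 18.4 in Ami25, and 12.2, 24.3 and 30.3 in Ami50. Its ranges overlapped, and it was not called in Ami50 (0.48 ± 0.22, adjusted p = 0.0632) or Ami25 (0.47 ± 0.23, adjusted p = 0.0716). Leaving out vehicle library 22 or Ami50 library 18, 83 or 84 brought Col14a1 past the threshold in Ami50 (0.53 to 0.55, adjusted p from 0.0362 to 0.0444), and leaving out Ami25 library 13, 34 or 36 did so in Ami25.

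Of 5 basement membrane genes tested, 1 was called higher and 1 lower in Ami50, and 2 higher in Ami25 (40% in each, beside 53.5% and 55.4% of all tested genes). Lama4, a laminin chain of vessel basement membranes, had PD16 levels of 23.7, 45.1 and 90.7 in vehicle, 26.7, 41.2 and 79.9 in MMI8, 18.5, 54 and 133 in MMI16, 24.6, 34.5 and 68.2 in Ami25, and 17.7, 32.7 and 54.3 in Ami50. In GD21 libraries they were 15.4, 19.5 and 27.5 in vehicle, 9.83, 11 and 21.7 in MMI8, 19.2, 22.4 and 35.8 in MMI16, 10.7, 20.6 and 26.2 in Ami25, and 11.5, 23.4 and 37.2 in Ami50. In Ami50 Lama4 was lower by the test (-0.50 ± 0.21, adjusted p = 0.0408), with 3 of 12 libraries below the vehicle minimum, and in Ami25 it was not called (-0.25, adjusted p = 0.326). Leaving out vehicle library 4, 23, 24, 57 or 59, or Ami50 library 17, 18, 19 or 38, ended the Ami50 call (-0.37 to -0.52, adjusted p from 0.0522 to 0.139). It was also lost without the libraries high in Alb (-0.46, adjusted p = 0.0767). The endothelial marker list summed to 610 to 897 CPM in PD16 vehicle and 258 to 427 CPM in Ami50. Its medians were 755 CPM in vehicle, 409 in MMI8, 401 in MMI16, 304 in Ami25 and 304 in Ami50. Of its 9 tested genes, 4 were called lower and 0 higher in each amitrole group, with median log2 differences of -0.25 in Ami25 and -0.29 in Ami50. In each methimazole group 2 were called lower, Pecam1 and Kdr. Over all tested genes 27.5% were called lower in Ami25, 26.5% in Ami50, 6.89% in MMI8 and 7.26% in MMI16. Means in vehicle and Ami50 were 200 and 38.5 CPM for Pecam1 and 286 and 98.5 CPM for Kdr. The part of these genes in the Lama4 result was not tested.

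Col4a1, a chain of the collagen IV network, stood at PD16 at 51.2, 82.8 and 114 in vehicle, 59.9, 88 and 139.8 in MMI8, 48.9, 82.9 and 272 in MMI16, 65.8, 105 and 224 in Ami25, and 65.2, 114 and 152 in Ami50. For Col4a1 the GD21 values were 50.8, 55.2 and 82.4 in vehicle, 45.9, 53.4 and 61.2 in MMI8, 42.2, 64.7 and 164 in MMI16, 47.4, 54.5 and 62.6 in Ami25, and 44.5, 65.4 and 91.4 in Ami50. Ranges overlapped, with differences of 0.43 ± 0.17 in Ami50 (adjusted p = 0.0256) and 0.46 ± 0.17 in Ami25 (adjusted p = 0.0192). The Ami50 call was lost without vehicle library 23, 59 or 60 or Ami50 library 86 (adjusted p from 0.0515 to 0.0631), without the libraries high in Alb (0.161) and without those low in Eif2s3y (0.291), and the Ami25 call without Ami25 library 79 (0.37, adjusted p = 0.0541). Nid2, a nidogen that links laminin to collagen IV, measured at PD16 12.1, 24.8 and 35.4 in vehicle, 8.16, 25.8 and 42.8 in MMI8, 14.4, 28.9 and 89 in MMI16, 13.7, 27.7 and 68.2 in Ami25, and 10.9, 25.6 and 41.2 in Ami50. Its values at GD21 were 5.43, 12.7 and 16.5 in vehicle, 6.26, 10.5 and 15.8 in MMI8, 6.19, 12.8 and 35.7 in MMI16, 7.83, 10.7 and 16.1 in Ami25, and 9.88, 18.2 and 21.8 in Ami50. The PD16 groups overlapped and Nid2 was not called (0.09 ± 0.23 in Ami50, 95% interval -0.36 to 0.53, adjusted p = 0.766). Lamc1, the laminin gamma chain common to most laminins, was called in Ami25 (0.51 ± 0.17, adjusted p = 0.00842) and not in Ami50 (0.27, adjusted p = 0.177).

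Of 5 adhesive and matricellular genes tested, 3 were called higher and 1 lower in Ami50, and 4 higher and 1 lower in Ami25. That is 80% and 100% called, beside 53.5% and 55.4% of all tested genes. Matrix Gla protein (Mgp), an inhibitor of calcification that is deposited in elastic and cartilage matrix, had PD16 levels of 61.7, 80.4 and 111 in vehicle, 48, 70.2 and 126 in MMI8, 68.6, 83.7 and 175 in MMI16, 119, 152 and 239.8 in Ami25, and 101, 152 and 315 in Ami50. Those of GD21 were 119, 205 and 285 in vehicle, 98.6, 271 and 309.9 in MMI8, 121, 196 and 304 in MMI16, 106, 151 and 189 in Ami25, and 110.0, 142 and 264 in Ami50. Nearly all amitrole libraries exceeded the vehicle range (10 of 12 in Ami50, 11 of 11 in Ami25), and the differences were 1.18 ± 0.20 (adjusted p = 1.22e-06) and 1.07 ± 0.20 (adjusted p = 1.15e-05). Fibronectin (Fn1), the adhesive glycoprotein on which cells assemble other matrix, measured at PD16 15.3, 48.1 and 67.4 in vehicle, 24.5, 52.9 and 97 in MMI8, 36.1, 72.8 and 122 in MMI16, 37.4, 85.9 and 133 in Ami25, and 36.7, 76.6 and 219 in Ami50. Fibronectin at GD21 measured 18.1, 54.4 and 117 in vehicle, 23.5, 48.9 and 97 in MMI8, 27.1, 41.9 and 143 in MMI16, 18.8, 35.4 and 66.8 in Ami25, and 27.2, 59 and 98.4 in Ami50. The ranges overlapped, with 8 of 12 Ami50 and 7 of 11 Ami25 libraries above the vehicle maximum and differences of 0.98 ± 0.24 (adjusted p = 0.000445) and 0.86 ± 0.24 (adjusted p = 0.00246).

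Periostin (Postn), a matricellular protein of remodelling connective tissue, lay at PD16 at 48.6, 69.8 and 98.4 in vehicle, 29.9, 66.8 and 113 in MMI8, 68.3, 90.9 and 158 in MMI16, 43.5, 114 and 227 in Ami25, and 34.1, 111 and 256 in Ami50. Periostin lay at GD21 at 25.3, 76.7 and 113 in vehicle, 38.3, 51 and 85.1 in MMI8, 38.8, 81.9 and 148 in MMI16, 21.5, 54 and 98.9 in Ami25, and 42, 74 and 153 in Ami50. Its amitrole values spread on both sides of the vehicle range, with differences of 0.73 ± 0.22 in Ami50 (adjusted p = 0.00493) and 0.72 ± 0.23 in Ami25 (adjusted p = 0.00621). Without the libraries high in Alb the Ami50 call was lost (adjusted p = 0.0515). Sparc, a collagen-binding matricellular protein, stood at PD16 at 451, 599 and 782 in vehicle, 381, 535 and 691 in MMI8, 422, 615 and 1102 in MMI16, 464, 679.8 and 1273 in Ami25, and 486, 628 and 912 in Ami50. The GD21 values of Sparc were 436, 639 and 1067 in vehicle, 534, 705 and 902 in MMI8, 612, 678 and 1082 in MMI16, 391, 558 and 641 in Ami25, and 449, 667 and 920.1 in Ami50. All groups overlapped. Sparc was not called in Ami50 (0.24 ± 0.12, adjusted p = 0.0912) and was called in Ami25 (0.29 ± 0.13, adjusted p = 0.0475). That Ami25 call was lost when vehicle library 3, 21, 23, 24, 57, 59 or 60 or Ami25 library 15, 33, 34, 36, 78 or 79 was left out (0.21 to 0.29, adjusted p from 0.0507 to 0.14), and without Ami50 library 37 Sparc was called in Ami50 (0.29, adjusted p = 0.0441). Its relative Sparcl1 was lower in Ami50 (-0.44 ± 0.15, adjusted p = 0.0134) and Ami25 (-0.49 ± 0.16, adjusted p = 0.00682), and the Ami50 call was lost without the libraries low in Eif2s3y (0.104).

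The enzymes, chaperone and inhibitors split: of 5 tested, 2 were called higher and 2 lower in Ami50, and 2 higher and 1 lower in Ami25. That is 80% and 60% called, beside 53.5% and 55.4% of all tested genes. Pcolce, the protein that enhances cleavage of the procollagen C-terminus, had PD16 levels of 746, 895 and 1040.0 in vehicle, 960.0, 1052 and 1268 in MMI8, 717, 1067 and 1193 in MMI16, 1753, 2248 and 3545 in Ami25, and 1802, 2469 and 3043 in Ami50. The levels of Pcolce at GD21 were 2158, 2274 and 2396 in vehicle, 1762, 2459 and 2984 in MMI8, 1676, 1985 and 2412 in MMI16, 1846, 2242 and 2464 in Ami25, and 1419.5, 2069 and 2527 in Ami50. All amitrole libraries lay above all vehicle and MMI16 libraries (12 of 12 in Ami50 and 11 of 11 in Ami25 above the vehicle maximum). The differences from vehicle were 1.51 ± 0.10 in Ami50 (adjusted p = 7.55e-21), or 2.85-fold, and 1.48 ± 0.10 in Ami25 (adjusted p = 4e-20), or 2.79-fold. Serpinh1, the collagen chaperone HSP47, was lower, with PD16 levels of 22.9, 43.8 and 66.7 in vehicle, 16.6, 24.8 and 51.4 in MMI8, 12.2, 24.3 and 89 in MMI16, 13.3, 22.6 and 30.8 in Ami25, and 9.6, 23.2 and 36.5 in Ami50. Its GD21 ranges overlapped between all groups, at 13.7, 21.9 and 37.6 in vehicle, 14.4, 23.2 and 34.7 in MMI8, 16.1, 25.7 and 37.3 in MMI16, 16.7, 22.8 and 32.6 in Ami25, and 16.5, 25.1 and 44.1 in Ami50. The PD16 vehicle median was the highest of the PD16 groups. Below the vehicle minimum lay 6 of 12 Ami50 and 8 of 11 Ami25 libraries, and the differences were -0.90 ± 0.21 (adjusted p = 0.000179) and -1.04 ± 0.21 (adjusted p = 3.52e-05).

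Timp3, the metalloproteinase inhibitor that binds to matrix, stood at PD16 at 38.5, 51.7 and 101 in vehicle, 26.4, 47.2 and 82.8 in MMI8, 35.4, 74.1 and 119 in MMI16, 81.3, 109 and 208 in Ami25, and 70.4, 80.9 and 109 in Ami50. Its GD21 range was 52.9, 80.6 and 117 in vehicle, 80.6, 86.2 and 90.7 in MMI8, 61.3, 73.3 and 128 in MMI16, 57.1, 73.1 and 82.1 in Ami25, and 69.7, 77.8 and 84.8 in Ami50. Vehicle and amitrole ranges overlapped, with the highest vehicle library at 101 CPM. Timp3 was higher by 0.59 ± 0.15 in Ami50 (adjusted p = 0.000938) and 0.96 ± 0.15 in Ami25 (adjusted p = 2.61e-07). Timp1, a soluble inhibitor of the same family, measured at PD16 114, 133 and 166 in vehicle, 108, 149.5 and 209 in MMI8, 107, 135 and 180.3 in MMI16, 82.2, 110.5 and 138 in Ami25, and 66.4, 100.2 and 145 in Ami50. The range of Timp1 at GD21 was 92.1, 103 and 124 in vehicle, 90.7, 109 and 131 in MMI8, 99.96, 113 and 138 in MMI16, 87.3, 111 and 140.0 in Ami25, and 66.6, 109 and 131 in Ami50. It was not called in Ami50 (-0.28 ± 0.13, adjusted p = 0.0678) or Ami25 (-0.27 ± 0.14, adjusted p = 0.0829), but was called lower in Ami50 without vehicle library 4, 21, 57, 59 or 60 or Ami50 library 20 or 38 (-0.32 to -0.35, adjusted p from 0.0222 to 0.0431). Timp1 was called lower in Ami25 without vehicle library 21, 57 or 59 (-0.32, adjusted p from 0.038 to 0.0414). Mmp2, gelatinase A, was lower in Ami50 (-0.57 ± 0.22, adjusted p = 0.0279) and not called in Ami25 (-0.05, adjusted p = 0.866). The call was lost without vehicle library 4 (adjusted p = 0.0619) or 60 (0.0577) and without the libraries low in Eif2s3y (0.232).

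Below the PD16 filter were 11 members: Col5a1, Fbn1, Fbln1, Efemp1, Vcan, Col15a1, Lamb2, Tnc, Lox, Loxl1 and Timp2. Their group means lay between 0 CPM (Tnc in PD16 MMI8) and 16.9 CPM (Lamb2 in PD16 Ami25). Lox, the enzyme that cross-links collagen and elastin, had a mean of 0.09 CPM in PD16 vehicle, 0.36 in MMI8, 0.71 in MMI16, 1.94 in Ami25 and 2.18 in Ami50, so its values rest on single counts. Fibrillin-1 (Fbn1), the backbone of the microfibril, reached its highest group mean, 15.3 CPM, in PD16 Ami50. With no filter on low counts, Fbn1 was called higher in Ami50 than in vehicle (1.35, adjusted p = 0.000181), as were Lamb2 and Lox, and Col15a1 was called lower.

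The members together made up a small share of each library. Their summed counts were a median of 0.68% of the total in PD16 vehicle (0.58% to 0.81%), 0.71% in MMI8, 0.74% in MMI16, 0.93% in Ami25 (0.72% to 1.31%) and 0.90% in Ami50 (0.67% to 1.37%). At GD21 the medians were 0.83% in vehicle, 0.87% in MMI8, 0.92% in MMI16, 0.81% in Ami25 and 0.86% in Ami50. These ranges overlapped between all PD16 groups. With Col1a2 left out of the sum, the share was 0.38% to 0.51% in PD16 vehicle, 0.55% to 1.03% in Ami25 and 0.52% to 1.01% in Ami50, so neither amitrole group then overlapped vehicle. MMI8 (0.36% to 0.55%) and MMI16 (0.41% to 0.84%) still did. In this sum Pcolce held the most counts of any member, 109222 over all libraries, followed by Sparc with 37889. Pcolce alone was higher in every PD16 amitrole library than in any PD16 vehicle library. The gap therefore need not hold for the other members, and the share without Pcolce was not computed. Between libraries of a group, the members' median biological coefficient of variation was 25.9% at PD16 and 31.0% at GD21, against 19.1% and 19.6% over all tested genes, and it ranged at PD16 from 13.9% for Fbln5 to 47.2% for Col1a2.

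**Figure D3:**
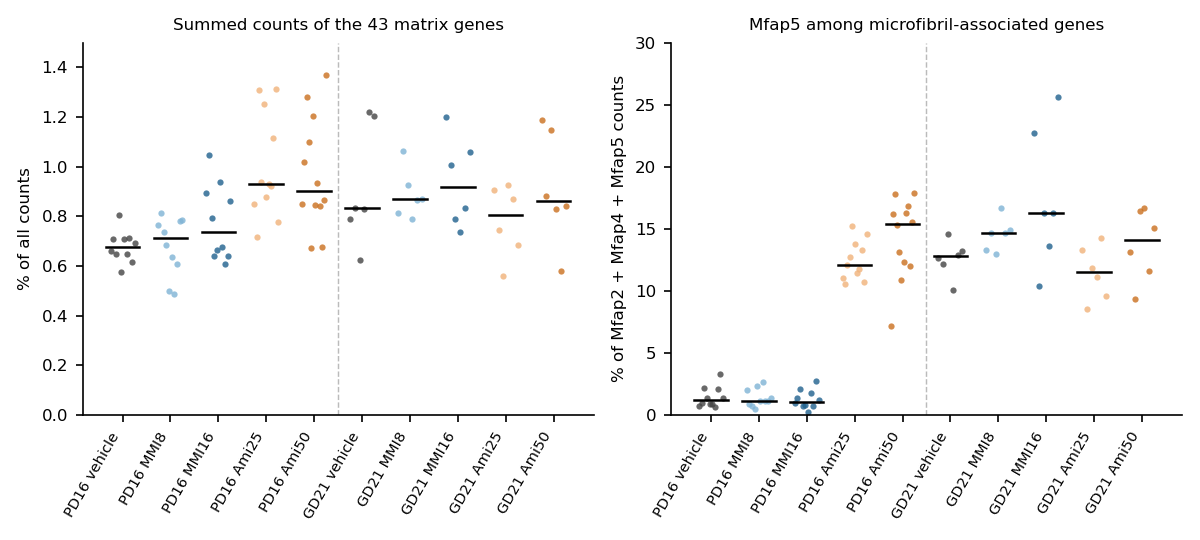
Left, the summed counts of the 43 members as a percentage of the total count of each library, and right, Mfap5 as a percentage of the counts of Mfap2, Mfap4 and Mfap5, by group, 1 point per library with the median as a bar. On the right the PD16 vehicle and methimazole libraries stay at or below 3.32%, and every PD16 amitrole library is at 7.20% or above.

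Few differences were called for methimazole at PD16. In MMI8, 0 of 32 tested members were called against vehicle, where 8.36% of all tested genes were (6.89% lower). There, 3 of the 32 had an unadjusted p under 0.05, beside 17.0% of all tested genes, and DESeq2 called 0. In MMI16, Serpinh1 alone was called, in the lower direction (-0.70 ± 0.21, adjusted p = 0.0221), where 8.11% of all tested genes were called (7.26% lower). At an unadjusted p under 0.05 there were 6 of the 32 members, beside 15.8% of all tested genes. The median log2 difference of the members was -0.05 in MMI8 and 0.17 in MMI16, beside 0.01 and 0.07 over all tested genes. In MMI8 Serpinh1 differed by -0.61 ± 0.21 (adjusted p = 0.0679). The MMI16 call was lost without vehicle library 58 or 59 or MMI16 library 9, 30, 73 or 75 (-0.59 to -0.65, adjusted p from 0.0557 to 0.094), and leaving out MMI16 library 73 brought in Col14a1 (0.70, adjusted p = 0.0379). MMI8 Serpinh1 was called without vehicle library 23 (-0.67, adjusted p = 0.0346) or MMI8 library 7 (-0.71, 0.0311).

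In MMI16 the genes that led the amitrole differences were not called: Mfap5 differed from vehicle by -0.10 ± 0.36 (95% interval -0.81 to 0.61), Dpt by -0.54 ± 0.61 (-1.74 to 0.66), Eln by 0.51 ± 0.35 (-0.17 to 1.18) and Pcolce by 0.15 ± 0.10 (-0.05 to 0.34). Between the methimazole doses 0 of 32 members were called, where 2.08% of all tested genes were (1.9% lower). At this comparison 8 of the 32 had an unadjusted p under 0.05, beside 12.2% of all tested genes, and DESeq2 called 1, Eln (1.35, adjusted p = 0.0312).

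Between the amitrole doses no gene at all was called (0% of all tested genes) and DESeq2 called 0 members. An unadjusted p under 0.05 was met by 2 of 32 members, beside 4.69% of all tested genes. For the genes with the largest differences from vehicle, Ami50 differed from Ami25 by 0.13 for Mfap5 (95% interval -0.20 to 0.45), 0.13 for Dpt (-0.28 to 0.53) and 0.03 for Pcolce (-0.14 to 0.21). The 2 members past the unadjusted threshold were Timp3 (-0.37, -0.65 to -0.09) and Mmp2 (-0.52, -0.97 to -0.07), with an adjusted p of 0.899 for each.

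Ami50 was also compared with MMI16, the highest doses given. Of 32 tested members, 12 were called higher and 5 lower in Ami50, where 22.6% of all tested genes were called higher and 24.9% lower (47.5% in either direction), and the median was 0.31 beside -0.04 over all tested genes. For the 28 members that did not depend on the amitrole libraries to pass the filter, the counts were 8 higher and 5 lower, with a median of 0.26. Dpt, Mfap5, Eln and Fbln5 are the 4 that did. In order of size the calls were led by Dpt (4.26 ± 0.37, adjusted p = 2.34e-16, 19.2-fold), Mfap5 (3.48 ± 0.25, 9.06e-18), Pcolce (1.37 ± 0.10, 5.13e-18), Eln (1.32 ± 0.28, 7.09e-05), Mgp (0.97 ± 0.20, 6.4e-05) and Fbln5 (0.94 ± 0.22, 0.000308). In Dpt, Mfap5 and Pcolce all 12 Ami50 libraries lay above the highest MMI16 library, while in Eln and Mgp 2 and 4 did. Of the 17 calls, 12 were kept in every fit that left out 1 library. The Col3a1 call was lost without MMI16 library 32 (0.46, adjusted p = 0.0517) or Ami50 library 86 (0.40, 0.0544). Timp3 was lost without MMI16 library 9, 30 or 32 or Ami50 library 85 (0.31 to 0.39, with adjusted p from 0.0515 to 0.11). Dcn was lost without MMI16 library 10, 11, 12, 30, 31 or 73 or Ami50 library 19 or 86. Col5a2 was lost without MMI16 library 9, 29, 31, 32, 73 or 75 or Ami50 library 18, 85 or 86. Timp1 was lost without MMI16 library 9, 73 or 75 or Ami50 library 18, 37, 39, 40, 83, 84, 85 or 86. These 3 genes had adjusted p-values up to 0.101 (Dcn), 0.111 (Col5a2) and 0.248 (Timp1) in those fits. Efemp2 was called lower without MMI16 library 11 or Ami50 library 37 or 40 (-0.36 to -0.39). Without the libraries high in Alb 8 were called higher and 4 lower, with a median of 0.17, and the same 5 calls were lost. Without those low in Eif2s3y 10 were higher and 3 lower, with a median of 0.16, and Mmp2 (-0.62, adjusted p = 0.129) was lost as well. Without MMI16 library 10, the library with the lowest total, Col1a1 (0.64), Col6a2 (0.80), Col4a1 and Col18a1 were called as well.

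At GD21 none of 38 tested members was called by edgeR in any of the 4 treated groups against vehicle, nor was any of the 6236 genes tested (0%). An unadjusted p under 0.05 was met by 1 member in each of MMI8, MMI16 and Ami25 and by none in Ami50, out of 175, 210, 579 and 431 genes in all. These were Lama4 in MMI8 (-0.73), Mfap5 in MMI16 (0.64) and Sparc in Ami25 (-0.38). DESeq2 called 0 members in each, and 22 genes in all for Ami50. For the genes with the largest PD16 Ami50 differences, the Ami50 difference at GD21 was 0.50 for Mfap5 (95% interval -0.09 to 1.10), 0.48 for Dpt (-0.22 to 1.17), 0.36 for Eln (-0.59 to 1.30) and -0.21 for Pcolce (-0.45 to 0.04). These intervals lie below the point estimates of the PD16 Ami50 differences of the same 4 genes, which were chosen for their size. The intervals of those PD16 differences were not set against them. Between doses at GD21, 0 members were called. At an unadjusted p under 0.05 there were 4 of 38 for methimazole and 2 of 38 for amitrole, beside 6.32% and 3.26% of all tested genes.

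Between the labelled stages the share of matrix genes called in the vehicle libraries, 48.6%, was near that of all tested genes, with Dpt and Mfap5 differing most. The stage and amitrole comparisons share the PD16 vehicle libraries, so their values are given side by side only. Of 37 members tested over both stages, 8 were called higher and 10 lower at PD16, where 24.4% of all tested genes were called higher and 22.1% lower (46.5% in either direction), with a median of -0.21 beside 0.04. Lower at PD16 were Dpt (-3.09 ± 0.40, adjusted p = 2.35e-10), Mfap5 (-2.70 ± 0.30, 4.4e-12), Pcolce (-1.49 ± 0.11, 1.5e-19) and Mgp (-1.40 ± 0.23, 5.72e-07), with all 10 PD16 vehicle libraries below the lowest GD21 vehicle library in each. Eln (-1.27 ± 0.40, 0.00602), Fbn1 (-1.05 ± 0.37, 0.0158), Ogn (-1.02 ± 0.21, 2.64e-05), Col6a2 (-0.87 ± 0.27, 0.00527) and Sparc (-0.39 ± 0.14, 0.0188) were lower too, with overlapping ranges. In the PD16 fit Dpt, Mfap5 and Eln passed the filter only through the amitrole libraries, and Fbn1 did not pass it. The filter over both stages may likewise favour genes that are low in PD16 vehicle and high elsewhere.

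Higher at PD16 were the basement membrane genes Lama4 (1.07 ± 0.23, adjusted p = 9e-05) and Nid2 (0.87 ± 0.27, 0.00498), the enzyme Mmp2 (0.80 ± 0.25, 0.00529), the chaperone Serpinh1 (0.68 ± 0.22, 0.00736), and Sparcl1 (0.76 ± 0.20, 0.00089). Mfap2 lay above the highest GD21 vehicle library in all 10 PD16 vehicle libraries (0.72 ± 0.18, 0.000537), the reverse of Mfap5. Calls lost without the libraries high in Alb included Eln (-0.89, adjusted p = 0.0577) and Sparc (0.0519), and without those libraries the counts were 7 higher and 8 lower. With the series of the library numbers as a covariate, the calls for Mmp2 (adjusted p = 0.0895), Sparcl1 (0.0883), Mfap4 (0.0762) and Sparc (0.0565) were lost. The series ended at library numbers 20, 40, 56 and 90. Libraries up to 40 are all labelled PD16 and those of the next series all GD21, so only the last series holds both stages. A series effect and a stage effect are thus largely confounded, and the cause of these losses was not tested.

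In the MMI16 libraries 7 members were called higher and 10 lower at PD16 than at GD21, where 47.0% of all tested genes were called, with a median of -0.17 beside 0.02. The leading genes were again Dpt (-4.00 ± 0.45, adjusted p = 1.04e-12), Mfap5 (-3.46 ± 0.31, 9.26e-16), Eln (-1.38 ± 0.38, 0.00199), Mgp (-1.24 ± 0.23, 8.57e-06) and Pcolce (-1.18 ± 0.11, 4.89e-15). The limit of the filter given for Dpt, Mfap5 and Eln holds here too. Lower as well were Lum (-0.77 ± 0.29, 0.0237), Col1a1 (-0.67 ± 0.27, 0.0334), Ogn (-0.65 ± 0.21, 0.00769) and Sparc (-0.44 ± 0.14, 0.00877). Higher at PD16 were Lama4 (0.98 ± 0.24, 0.000437), Nid2 (0.97 ± 0.26, 0.00148), Mmp2 (0.86 ± 0.26, 0.00463), Mfap2 (0.75 ± 0.18, 0.000407) and Sparcl1 (0.59 ± 0.20, 0.011). Without the libraries high in Alb the counts became 9 higher and 6 lower and the median 0.02. Calls lost then were Eln (-0.37, adjusted p = 0.403), Lum (-0.54, 0.168), Col1a1 (-0.24, 0.487), Fbln5 (-0.41, 0.195) and Sparc (-0.32, 0.0932). With the series of the library numbers as a covariate, the calls for Mmp2 (0.65, 0.0872), Sparcl1 (0.29, 0.334), Lum (-0.67, 0.126) and Col1a1 (-0.64, 0.12) were lost.

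In the Ami50 libraries only Col4a1 was called between the labelled stages (0.58 ± 0.19, adjusted p = 0.046, higher at PD16), where 7.86% of all tested genes were called (1.38% higher and 6.47% lower). There Mfap5 differed by 0.14 (95% interval -0.30 to 0.58), Dpt by 0.13 (-0.38 to 0.65) and Pcolce by 0.20 (-0.02 to 0.42). The interaction of stage and Ami50, the Ami50 difference at PD16 minus that at GD21, was called for 12 of 37 members (32.4%), 10 upward and 2 downward, where 32.8% of all tested genes were called (16.4% upward and 16.4% downward) and the medians were 0.31 and 0.03. The share called was near that of all tested genes. The interaction was largest for Dpt (3.22 ± 0.49, adjusted p = 4.76e-08), Mfap5 (2.85 ± 0.38, 2.84e-09), Fbn1 (1.73 ± 0.51, 0.00541), Pcolce (1.69 ± 0.16, 4.27e-15), Eln (1.45 ± 0.52, 0.0241) and Mgp (1.37 ± 0.33, 0.000485). These 6 remained without the libraries high in Alb and the other 6 did not. Without those low in Eif2s3y, 5 calls were lost: Eln (1.35, adjusted p = 0.0932), Col5a2, Col6a2, Mfap2 and Timp3. With no filter on low counts, 4 were lost: Eln (adjusted p = 0.0504), Col5a2, Mfap2 and Timp3. In the PD16 fit Dpt, Mfap5 and Eln passed the filter only through the amitrole libraries, and Fbn1 did not pass it. Which groups carried these genes past the filter over all groups was not examined, so the same limit may hold for their interactions. The interaction of stage and MMI16 was called for 0 of 37 members (5.22% of all tested genes). In that test 1 of the 37 had an unadjusted p under 0.05, beside 10.1% of all tested genes, and DESeq2 called 0.

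**Figure D4:**
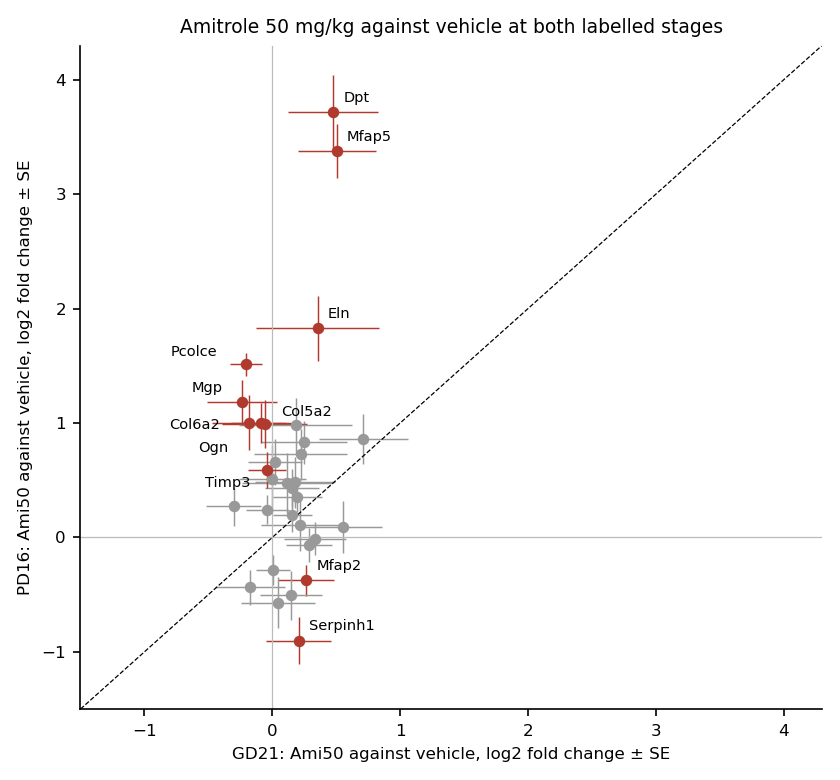
Log2 fold change between Ami50 and vehicle at PD16 (vertical axis) against the same at GD21 (horizontal axis), each with its SE, 1 point for each of the 32 members tested at both labels; the dashed line marks equal values, and red points with names are the 11 with a called interaction. Dpt and Mfap5 lie at 3.72 and 3.38 at PD16 but at 0.48 and 0.50 at GD21.

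Other genes of the pathway were described by lists beyond the 51 symbols. The calls given are for PD16, where 53.5% of all tested genes were called in Ami50 against vehicle (27.1% higher and 26.5% lower). In Ami50 against vehicle, 4 of 10 tested other structural matrix proteins were called higher and 3 lower, among them Ccn1, a matricellular protein (-3.78), osteopontin Spp1 (1.85) and Ecm1 (1.67). Of 14 tested collagen-modifying and matrix-cleaving enzymes, 4 were higher and 3 lower, including the protease Adamts9 (-1.01), the collagen prolyl hydroxylase P4ha2 (0.81) and the metalloproteinase Mmp23 (0.79). Of 7 matrix receptors tested 1 was higher, the integrin chain Itga1 (0.76), and of 3 TGF-beta signalling genes 1 was higher, the repressor Tgif1 (0.57). None of 17 other collagens with a row passed the filter.

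Summed marker levels of cell types moved in different directions at PD16. Genes counted as higher or lower are calls in Ami50 against vehicle, where 27.1% of all tested genes were called higher and 26.5% lower. The adrenal cortex list summed to a median of 18339 CPM in PD16 vehicle, 22960 in MMI8, 22633 in MMI16, 43017 in Ami25 and 47532 in Ami50, with 6 of 6 tested genes higher in Ami50 (median log2 difference 1.62). The adult globin list had medians of 34138 CPM in PD16 vehicle and 86626 in Ami50, with 5 of 5 higher. The adrenal medulla list had medians of 886 and 1294 CPM, with 3 of 7 higher and 2 lower. The list for fibroblast and capsule mesenchyme summed to 103, 132 and 189 CPM (lowest, median and highest) in PD16 vehicle, 59.2, 72.8 and 133 in Ami25, 42.3, 73.3 and 93.5 in Ami50, and 48.0, 77.1 and 134 in GD21 vehicle. Of its 4 tested genes, 2 were lower in Ami50 (Pdgfra, -1.52, and Tcf21, -0.78). The smooth muscle list summed to 25.0, 47.8 and 68.7 in PD16 vehicle, 77.4, 101 and 200.3 in Ami25 and 69.8, 98.9 and 567 in Ami50, with 1 of 2 tested genes higher (Tagln, 1.82), although Acta2 and Cnn1 had medians of 0. The leukocyte list summed to 171, 201 and 227 in PD16 vehicle and 270, 303 and 511 in Ami50, with 7 of 8 tested genes higher and 1 lower. The liver list summed to 72.2, 133 and 277 CPM in PD16 vehicle, 168, 268 and 7725 in Ami25, and 164, 221 and 10883 in Ami50. In Ami50 5 of 5 tested liver genes were higher, with a median log2 difference of 3.43. The part of these lists in the matrix results was not tested.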

How the data were processed

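Libraries were made by barcoded bulk 3′-end RNA sequencing from RNA with an integrity number above 6.8, per the labels' protocols. The authors aligned the reads with BWA 0.7.4.4 to the rat build rn6, per the submitters' processing notes. The authors deposited raw counts, 1 row for each gene symbol and 1 column for each library. Which counter and gene models they used, and how strand and molecular identifiers were treated, is not given in the sources used here. Libraries were grouped by stage, agent and dose in the labels. The counts were tested with edgeR 4.0.16 in R 4.3.3 (TMM factors, filterByExpr with a minimum count of 10, robust quasi-likelihood fits), fitting the 5 groups of a stage or all 10 groups together. SEs are the absolute log2 difference over the square root of F. CPM values use total counts. A pair check of 331 same-group library pairs found no copy (lowest chi-square per degree of freedom 1.56). DESeq2 1.42.0 was an alternative, as were other size factors, leaving the filter out, keeping genes whose mean reached 10 CPM, a covariate for the number series of the libraries, leaving out libraries (low totals, Alb at 200 CPM or more, Eif2s3y under 10 CPM, each in turn) and fitting only the compared groups. An edgeR legacy fit was added after seeing the data. Within each role, up to 3 called members by size and the member with the smallest change were named; in other comparisons, up to 6 called. The members and lists were chosen with earlier results of these data known. The reference tables hold the build GRCr8, so coordinates were used for promoters only.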

Additional observations from a re-analysis of the deposited data

Results flagged for a closer look

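Called members named in the PD16 Ami50 comparison, the summed share and the Mfap5 share were examined for a single library far from the rest. Only groups of 4 to 10 libraries were taken, so PD16 Ami25 (11 libraries) and PD16 Ami50 (12 libraries) were not examined. Of 152 groups, 19 held such a library by Dixon's criterion, where chance gives about 1 in 20. Several come from the same libraries. PD16 MMI16 library 10, which has the lowest total count, was the highest of its group in Col5a2 (168 CPM), Col3a1 (1023 CPM), Col6a2 (267 CPM), Eln (64.3 CPM), Col4a1 (272 CPM) and Serpinh1 (89.0 CPM). GD21 MMI16 library 47 was the highest in Col6a2 (149 CPM), Eln (137 CPM), Col4a1 (164 CPM) and Timp3 (128 CPM). PD16 MMI16 library 9 was the highest in Mgp (175 CPM) and the lowest in Pcolce (717 CPM). PD16 vehicle library 4 was the highest in Col3a1 (459 CPM) and Lama4 (90.7 CPM), and GD21 MMI8 library 68 in Eln (45.3 CPM) and Lama4 (21.7 CPM). The remaining ones were Dpt in PD16 vehicle library 60 (13.0 CPM) and GD21 MMI8 library 46 (68.4 CPM), and Col5a2 in GD21 vehicle library 62 (102 CPM).

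The Ami50 difference from vehicle was not the same at the labelled stages for 12 members by the interaction test in edgeR. These were 32.4% of the 37 members tested, beside 32.8% of all tested genes. In log2 units, the PD16 difference exceeded the GD21 one by 3.22 for Dpt, 2.85 for Mfap5, 1.73 for Fbn1, 1.69 for Pcolce, 1.45 for Eln, 1.37 for Mgp, 1.15 for Col6a2, 1.04 for Ogn, 1.01 for Col5a2 and 0.59 for Timp3. It was smaller by the test for Serpinh1 (-1.14) and Mfap2 (-0.68). For Dpt, Mfap5, Eln and Fbn1 the limit of the filter given above applies.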

How the results depend on the processing

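Over 10 alternatives for each comparison, the number of members called stayed between 20 and 24 in Ami25 (21 as reported), 16 and 24 in Ami50 (21), 12 and 20 in Ami50 against MMI16 (17), and at 0 in the 6 GD21 comparisons and between the amitrole doses. MMI8 against vehicle went from 0 to 1 without the library of low total count (Serpinh1) and with only the compared libraries fitted (Pcolce). MMI16 against vehicle went from 1 to 0 with only the compared libraries and without those high in Alb, and MMI16 against MMI8 from 0 to 1 without those high in Alb and with DESeq2. The Ami50 comparison of stages went from 1 to 0 under DESeq2 size factors, no filter, the filter at a mean of 10 CPM, without libraries high in Alb or low in Eif2s3y, the legacy fit, DESeq2 and only the compared libraries, and to 2 with a covariate for the number series of the libraries. The interaction of stage and Ami50 went from 12 to 6 without libraries high in Alb; the cause of these shifts was not tested. The summed share without Col1a2 was 0.466%, 0.477%, 0.498%, 0.716% and 0.691% in PD16 vehicle, MMI8, MMI16, Ami25 and Ami50, and 0.572%, 0.601%, 0.592%, 0.533% and 0.592% in GD21 vehicle, MMI8, MMI16, Ami25 and Ami50, since 1 gene less is summed. Within a stage, leaving out each library in turn gave 0 to 1 calls in MMI8, 0 to 1 in MMI16, 20 to 22 in Ami25, 19 to 22 in Ami50, 13 to 20 in Ami50 against MMI16, and 0 in the other comparisons of that stage. The comparisons between stages and the interactions were not refitted in this way. Of 1077 single-gene values under alternatives, 990 kept their side of the threshold, 87 lost the call and 0 changed direction. No paired analysis was possible because the library numbers in the titles all differ, so no replicate number is shared between groups. At PD16 depth, genes that reached about 20.3 CPM in fewer libraries than the smallest group holds were not tested.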

Other observations

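Outside the 51 symbols, a pair of matrix-related genes were lower in the PD16 MMI16 libraries than in vehicle, where 1 of the 32 tested members was called. Ccn1 was the only call among 10 tested other structural matrix proteins, and Sdc4 the only call among 7 matrix receptors. Of 14 collagen-modifying and matrix-cleaving enzymes and 3 TGF-beta signalling genes tested, none was called. Over all tested genes 8.11% were called (7.26% lower). Ccn1, a secreted matricellular protein that is also an immediate-early gene, stood at 13.8 ± 4.80 CPM (SD, n = 10) in MMI16 and 112 ± 35.7 CPM (SD, n = 10) in vehicle, a log2 difference of -3.14 ± 0.27 (SE, adjusted p = 2.12e-15 in edgeR). Sdc4, a cell-surface heparan sulfate proteoglycan that binds fibronectin, stood at 30.0 ± 6.99 CPM and 74.7 ± 17.8 CPM, a difference of -1.37 ± 0.18 (adjusted p = 2.61e-09 in edgeR). In Ami50 Ccn1 was lower as well, at 7.63 ± 7.52 CPM (SD, n = 12), a log2 difference from the same vehicle libraries of -3.78. Sdc4 stood at 76.9 ± 11.6 CPM in Ami50 beside the 74.7 CPM in vehicle.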
